A study of Mus musculus with 4 samples.

Results

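The hepatocyte transcription factor network was described here by 9 genes, picked by gene symbol: the nuclear receptors Hnf4a and Nr5a2, the forkhead factors Foxa1, Foxa2 and Foxa3, the basic leucine zipper factors Cebpa and Cebpb, and the homeobox factors Onecut1 and Prox1. All 9 had a row among the 24063 gene symbols of the count tables. The RNA came from 4 mouse tumours, numbered 1, 5, 9 and 10, in which MYC and PMEPA1 were overexpressed together in C57BL/6 mice (C57BL6/J in the sample titles) after hydrodynamic tail vein delivery, a rapid high-volume injection that carries DNA mainly into hepatocytes. The series text calls them hepatocellular carcinomas (HCC). Every tumour carries both genes and no other treatment, so there is 1 group, no control, and no comparison between conditions. The labels also carry a passage number of 8 to 10, whose meaning for a tumour they do not explain. Whether each tumour is from its own animal, and the animals' age and sex, are not in the labels. The measurement is therefore the spread between tumours, which may be partly technical.

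These factors form the core circuit that sets and keeps the hepatocyte programme. FOXA proteins open liver enhancers in embryonic endoderm, HNF4A drives most hepatocyte genes and binds the promoters of many of the other factors, and the factors regulate one another and themselves. C/EBP alpha promotes the mature metabolic state and restrains growth, C/EBP beta serves the acute phase and regeneration, ONECUT1 (HNF6) and PROX1 act in the growing liver bud and in the choice between bile duct cell and hepatocyte, and NR5A2 (LRH-1) controls bile acid and cholesterol genes.

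Gene totals ran from 41547938 to 51939623 counts. Levels are given as CPM, counts scaled to a common library size by the trimmed mean of M-values (TMM), and compared between genes only per kilobase of transcript. Genes averaging 1 CPM or more were called expressed, which held for 13129 genes and for all 9 members, although Foxa1 passed only through tumours 1 and 10. Hepatocyte markers were abundant in every tumour. The 12 genes summed to 18580, 19880 and 24690 CPM in tumours 1, 5 and 9 and to 43370 CPM in tumour 10. With TMM, 10 of the 12 were highest in tumour 10, as were 35.8% of all expressed genes. Apob (1564 and 1754 CPM in tumours 5 and 10) and Hpx (1101 and 1248 CPM) differed little there, so their place depends on scaling. In bulk RNA, fewer cells of a type and less RNA per cell cannot be told apart.

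The members differed in 2 ways. Hnf4a was the most abundant member everywhere and Nr5a2 the steadiest, while Foxa1 was present in tumours 1 and 10 and nearly silent in tumours 5 and 9. In tumour 10, Cebpa and Cebpb were at their highest, 3.62- and 3.29-fold above their lowest tumour, and Onecut1, Prox1 and Foxa3 were at their lowest.

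**Figure D1:**
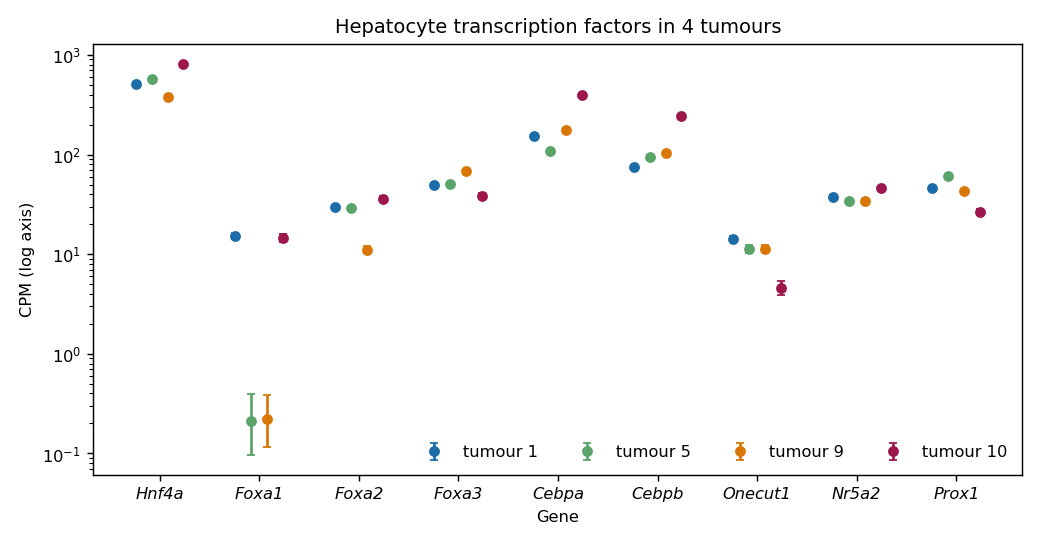
CPM of the 9 transcription factor genes in each tumour, on a log axis; points are single libraries and bars are exact 95% Poisson intervals of the count. Foxa1 lies near 15 CPM in tumours 1 and 10 and near 0.2 CPM in tumours 5 and 9, while Hnf4a lies between 382 and 809 CPM.

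Hnf4a, the nuclear receptor at the centre of the circuit, lies on chromosome 2 (GRCm38, 163506808 to 163572910, plus strand). It starts from an upstream promoter (P2), known from fetal liver, gut and pancreas, or from a downstream promoter (P1) used in the adult liver. The count tables hold 1 Hnf4a row, NM_008261, so no separate transcript rows could be compared, and reads on exons shared by the 2 kinds of transcript cannot be assigned to a promoter. The bases before the upstream RefSeq start site are given because this choice is what the single row leaves unresolved. They are taken from the RefSeq table on GRCm38.p6, on the plus strand, without annotated untranslated bases, and capitals mark a match to the motif named afterwards.
Hnf4a upstream start, chr2:163506607-163506807: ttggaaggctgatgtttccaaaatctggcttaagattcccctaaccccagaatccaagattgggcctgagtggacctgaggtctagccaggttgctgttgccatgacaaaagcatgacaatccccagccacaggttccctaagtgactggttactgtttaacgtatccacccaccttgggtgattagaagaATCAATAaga

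The upstream window held ATCAATA, the reverse complement of the ONECUT letters TATTGAT, 59 to 53 bases before the start. Of the 32851 promoter windows searched, 1.86% hold that motif within the 250 bases before the start. This is a match of letters and not measured binding.

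The Hnf4a level was 508.4 CPM in tumour 1, 566.9 in tumour 5, 382.3 in tumour 9 and 809.2 in tumour 10, on average 566.7 ± 179.1 CPM (SD, n = 4). Tumour 10 was highest and tumour 9 lowest, 2.12-fold apart. Per kilobase, Hnf4a stood above 92.8 to 95.1% of expressed genes of the same tumour and above all 8 other members in all 4 tumours. Its SD of log2 CPM, 0.45, equals the median of all expressed genes. No exon of another gene overlaps an Hnf4a exon in GENCODE M21.

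Nr5a2, the orphan receptor LRH-1 (chromosome 1, 136842571 to 136960448, minus strand), had 37.6, 34.3, 34.0 and 46.4 CPM. The 4 values lie within 1.36-fold, and the SD of 0.21 log2 units stands at percentile 14.7 of expressed genes. Among all pairs of members, Nr5a2 and Hnf4a had the most similar profiles over the 4 tumours, with a Euclidean distance of 0.504 log2 units between their centred values. Nearer still, within 0.5 log2 units, lay 2967 expressed genes for Nr5a2 and 1303 for Hnf4a, so this closeness is not particular to the pair. Tumour 10 was highest for both, but with total counts as the scaling Nr5a2 was highest in tumour 1, and its log2 difference of tumour 10 from the mean of the others was -0.03 against 0.39 with TMM.

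The 3 FOXA genes encode pioneer factors with near-interchangeable forkhead domains, and they showed 3 different patterns. Foxa1 (chromosome 12, 57540628 to 57546916, minus strand) had 878, 9, 12 and 491 counts, or 15.3, 0.210, 0.223 and 14.6 CPM, in tumours 1, 5, 9 and 10. The exact 95% Poisson intervals are 14.3 to 16.4 and 13.3 to 15.9 CPM in tumours 1 and 10. In tumours 5 and 9 they are 0.0961 to 0.399 and 0.115 to 0.390 CPM. These 2 pairs were read from the same values, and the intervals cover counting error only. Beyond such error, 98.7% of expressed genes varied between tumours. The smallest ratio between the 2 pairs, tumour 10 over tumour 9, was 65.4 (95% interval 37.1 to 127, exact conditional binomial, counting error only). Its SD of 3.38 log2 units exceeds that of 99.5% of expressed genes. No exon of another GENCODE gene overlaps those of Foxa1.

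The RefSeq start of Foxa1 (57546111) lies inside the GENCODE gene given above, which on the minus strand starts at 57546916. The bases before this RefSeq start are shown because Foxa1 is the member that is on in some tumours and nearly off in others. They run 5′ to 3′ on the minus strand. The capitals mark GTAAACA, the reverse complement of the FOXA letters TGTTTAC, at 141 to 135 bases before the RefSeq start. This motif is in 3.17% of windows.
Foxa1, chr12:57546122-57546361: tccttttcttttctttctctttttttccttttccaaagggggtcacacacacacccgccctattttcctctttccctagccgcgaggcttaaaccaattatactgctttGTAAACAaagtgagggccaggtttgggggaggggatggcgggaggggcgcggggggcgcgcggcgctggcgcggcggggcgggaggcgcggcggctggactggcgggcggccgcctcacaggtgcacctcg

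The genes with the centred profile nearest to Foxa1 were Saa2, Orm2 and Saa1, at distances of 0.733, 1.05 and 1.14 log2 units over 4 tumours. They were chosen for this likeness among the 13129 expressed genes, and Saa2 and Orm2, like Foxa1, passed the limit of 1 CPM only through tumours 1 and 10. All 3 encode secreted acute phase proteins of hepatocytes. Saa2 had 10.96, 0.257, 0.149 and 17.5 CPM, Orm2 20.98, 0.467, 0.484 and 12.0 CPM, and Saa1 25.7, 1.17, 0.838 and 32.97 CPM in tumours 1, 5, 9 and 10. Saa1 and Saa2 are close copies, as are Orm genes, so reads may be split between them. No expressed gene lay within 0.5 log2 units of Foxa1, whereas 1303 did so for Hnf4a, the nearest being Mrpl14, Spc24 and Aes. The distance is not scaled for spread, so a gene that varies widely has few near genes for that reason alone. The SD of log2 CPM was 3.38 for Foxa1 and 0.45 for Hnf4a, so the 2 numbers of near genes cannot be compared. Foxa1 did not move with its neighbours on the chromosome, which were chosen after the Foxa1 values were seen. Mipol1 had 15.5, 11.9, 8.97 and 9.51 CPM, Prps1l3 91.2, 40.3, 51.2 and 47.7 CPM, and Clec14a 2.85, 2.06, 8.23 and 3.06 CPM, while Sstr1 had at most 2 counts.

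**Figure D2:**
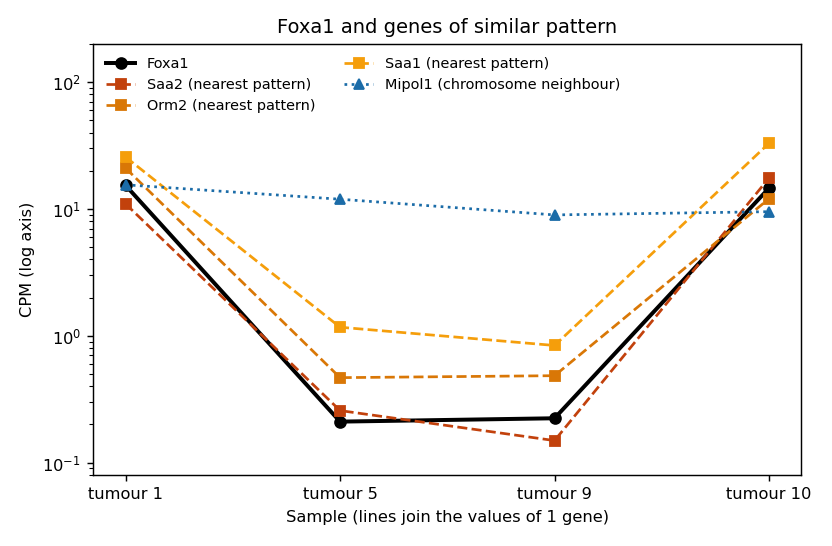
CPM of Foxa1, of the 3 expressed genes with the nearest centred profile and of its chromosome neighbour Mipol1, on a log axis; lines join the values of 1 gene and imply no order of the tumours. Saa1, Saa2 and Orm2 were chosen for this likeness and share the pattern of Foxa1 by that choice, with at most 1.17 CPM in tumours 5 and 9, while Mipol1 stays between 8.97 and 15.5 CPM.

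Foxa2 (chromosome 2, 148042877 to 148046969, minus strand) had 29.6, 28.9, 11.1 and 36.1 CPM. Tumour 9 was the low one, 3.26-fold below tumour 10. When edgeR's quasi-likelihood test set tumour 9 against the rest, the log2 difference was -1.51 ± 0.41 (SE), with an adjusted p of 0.465. The 3 Foxa2 rows share most reads (1690, 1666 and 1693 counts in tumour 1), so they give no separate isoform values. Foxa3 (chromosome 7, 19013284 to 19023538, minus strand) went the other way, with 49.5, 50.9, 67.8 and 38.8 CPM. It was highest in tumour 9, where Foxa2 was lowest, and lowest in tumour 10. Foxa2 was highest in tumour 10 with TMM, but with total counts in tumour 1, at 32.6, 29.8, 12.2 and 28.9 CPM.

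Summed per kilobase, the FOXA family was level: 42.9, 38.5, 38.5 and 40.5 CPM per kilobase in tumours 1, 5, 9 and 10, a mean of 40.1 ± 2.1 (SD, n = 4). Its make-up was not. Foxa3 supplied 56.6, 64.8, 86.4 and 47.0% of the sum, Foxa2 32.2, 35.0, 13.5 and 41.7%, and Foxa1 11.2, 0.2, 0.2 and 11.3%. These shares come from within each library and do not depend on scaling. The level sum does: with total counts alone it was 47.3, 39.7, 42.3 and 32.5 CPM per kilobase, a 1.46-fold range against 1.12-fold with TMM.

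Cebpa and Cebpb encode C/EBP alpha and beta, which bind the same sites as homodimers or heterodimers. Cebpa (chromosome 7, 35119293 to 35121928, plus strand) had 152.8, 109.2, 174.9 and 394.9 CPM. Cebpb (chromosome 2, 167688915 to 167690418, plus strand) had 74.8, 93.7, 104.2 and 246.2 CPM. For both, tumour 10 was far above the other 3 tumours, which lay closer to each other than to it. In tumour 10 against the other 3, edgeR's quasi-likelihood test gave log2 differences of 1.44 ± 0.31 (SE) for Cebpa, adjusted p = 0.314, and 1.44 ± 0.26 for Cebpb, adjusted p = 0.243. The DESeq2 Wald test, adjusted in the same way, gave 0.0132 and 0.0027. Relative to Hnf4a in the same library, per kilobase, Cebpa had ratios of 0.497, 0.318, 0.756 and 0.807 and Cebpb 0.422, 0.475, 0.783 and 0.873 in tumours 1, 5, 9 and 10. On that measure tumours 9 and 10 were close and tumours 1 and 5 lower. Hnf4a was itself lowest in tumour 9 and highest in tumour 10, which raises the ratios in tumour 9 and lowers them in tumour 10.

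Both genes are also active in myeloid cells. The 8 neutrophil markers summed to 13.98, 16.9, 533.6 and 22.5 CPM and the 7 macrophage markers with a row to 257.4, 203.9, 925.5 and 383.0 CPM in tumours 1, 5, 9 and 10, highest in tumour 9, with tumour 10 next. Within these sums, Mpo, Ltf and Cebpe were lower in tumour 10 than in tumour 5, and Clec4f was lowest in tumour 10. The other markers of both lists were second there. The part of myeloid cells in the Cebpa and Cebpb levels was not tested. Over the whole C/EBP family the sum per kilobase was 125.4, 113.6, 155.7 and 324.4 CPM. Cebpd, an inflammation-induced member, had at most 18.7 CPM and was highest in tumour 9. Cebpg, a partner without an activation domain of its own, was lowest in tumour 10, at 30.3 CPM against 72.6 in tumour 1. The rows of Cebpa had identical counts in each library, as had those of Cebpb, and Cebpb overlaps an exon of Tmem189 by 312 bases on the other strand, where Tmem189 itself had 5.04 to 20.9 CPM.

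Onecut1, the founding ONECUT factor (chromosome 9, 74861921 to 74891781, plus strand), had 14.2, 11.4, 11.3 and 4.55 CPM. The first 3 tumours lay close together and tumour 10 stood below them, with 153 counts and 3.12-fold under tumour 1. The log2 difference of tumour 10 was -1.43 ± 0.47 (SE), adjusted p = 0.55 (edgeR quasi-likelihood test). Relative to Hnf4a, per kilobase, Onecut1 stood at 0.0667, 0.0479, 0.0709 and 0.0134. Hnf4a is itself highest in tumour 10, which lowers that ratio there. With total counts as the scaling, Onecut1 had 15.6, 11.7, 12.45 and 3.65 CPM and was again lowest in tumour 10. Its exons overlap those of Gm20649, a non-coding gene on the same strand that has no row in the tables.

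The paralogues Onecut2 and Onecut3 were less abundant per kilobase and more uneven. Onecut2 had 12.1, 1.99, 0.577 and 5.29 CPM, and Onecut3 7.22, 6.21 and 0.168 CPM in tumours 1, 5 and 9. Tumour 10 had 0 Onecut3 counts, for which the upper limit is 0.0892 CPM. The ONECUT sum per kilobase was 10.2, 7.70, 6.30 and 2.89 CPM, with Onecut1 supplying 76.1, 80.9, 98.7 and 86.3% of it. It was highest in tumour 1 and lowest in tumour 10 under TMM, DESeq2 size factors and total counts alike.

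Prox1, a homeobox factor that binds HNF4A and NR5A2 as a corepressor (chromosome 1, 190118035 to 190170714, minus strand), had 46.2, 60.8, 43.5 and 26.3 CPM. Tumour 5 was highest and tumour 10 lowest, with a log2 difference of tumour 10 of -0.93 ± 0.32 (SE), adjusted p = 0.587 (edgeR quasi-likelihood test). Its ratio to Hnf4a was 0.0957, 0.113, 0.120 and 0.0342. Of the other members, Onecut1 had the nearest profile, at 0.675 log2 units. Nearer still, within 0.5 log2 units, lay 937 expressed genes for Prox1 and 365 for Onecut1. Prox1 also marks lymphatic endothelium. The 6 lymphatic markers summed to 22.96, 10.9, 15.7 and 5.89 CPM, with tumour 10 again lowest and tumour 1, not tumour 5, highest. Only 3 of the 6, Lyve1, Reln and Flt4, averaged 1 CPM or more. Lyve1 and Reln were lowest in tumour 10, but Flt4 was lowest in tumour 5, at 4.997 CPM against 5.411 in tumour 10. The lymphatic chemokine Ccl21a had no count in any tumour. The 8 cholangiocyte and progenitor markers summed to 53.3, 99.8, 16.2 and 14.6 CPM, a sum highest in tumour 5 and lowest in tumour 10, as Prox1 was. Of the 8, 5 were highest in tumour 5, but Krt7, Sox9 and Spp1 in tumour 1. Spp1 and Cldn4 were lowest in tumour 9, the others in tumour 10. The 7 stellate cell and fibroblast markers summed to 388.1, 276.4, 492.8 and 107.4 CPM, also lowest in tumour 10, as was Onecut1. The part of such cells in the Prox1 and Onecut1 levels was not tested. Of Prox1os, an antisense gene whose exon overlaps Prox1 by 133 bases, no row was present, and the strand used in counting is not given.

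**Figure D3:**
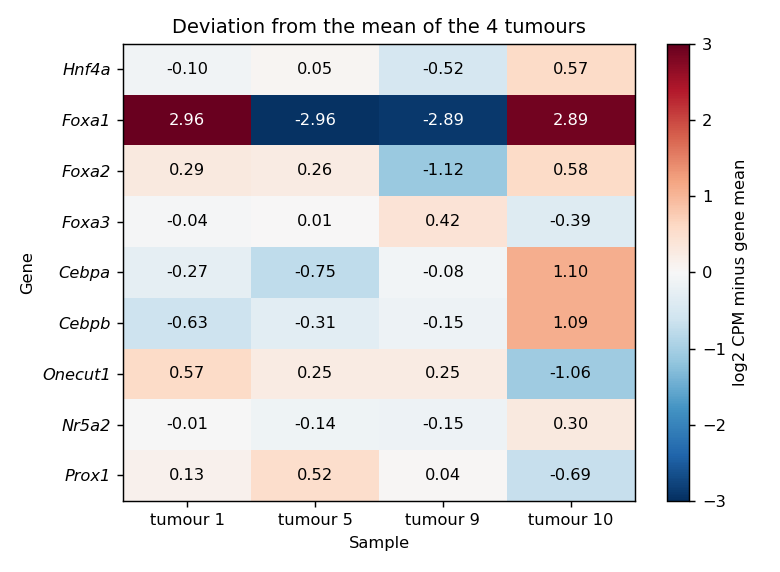
Log2 CPM of each gene minus its mean over the 4 tumours; colour and printed value show the same number, 1 library per column. Foxa1 shows values near 3 and -3, and in tumour 10 Cebpa and Cebpb are at 1.10 and 1.09 while Onecut1 is at -1.06 and Prox1 at -0.69.

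The order of the members by level was much the same in each tumour. Per kilobase, Hnf4a led in all 4 tumours, at 116.7, 130.1, 87.7 and 185.7 CPM per kilobase, followed by Cebpb (85.5 ± 51.8, SD, n = 4) and Cebpa (78.9 ± 48.4), which exchanged places in tumour 1. Foxa3 (25.4 ± 5.9) came next in all 4. Foxa2 (12.4 ± 5.0), Prox1 (10.7 ± 3.4) and Nr5a2 (10.2 ± 1.6) differed by less than their spread and changed order between tumours; in tumour 9 Foxa2 was also below Onecut1. Onecut1 (5.68 ± 2.25) stood below Nr5a2 in all 4 tumours and above Foxa1 (2.38 ± 2.67) in 3 of 4.

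**Figure D4:**
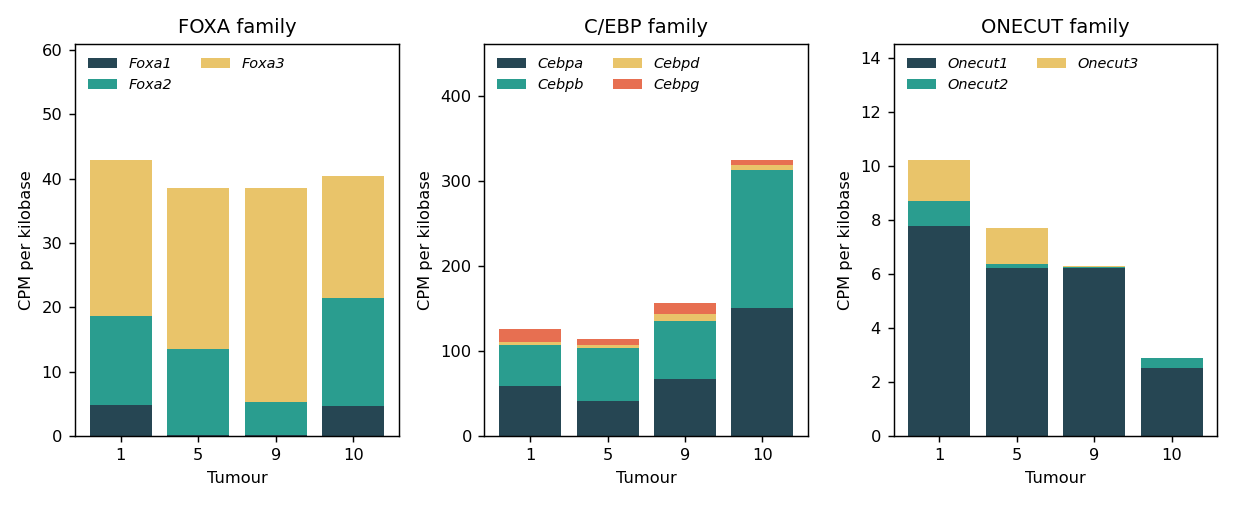
Stacked levels of the FOXA, C/EBP and ONECUT genes in CPM per kilobase of transcript, 1 bar per tumour, with linear axes from 0. The FOXA bars are of similar height but differ in make-up, the C/EBP bar is highest in tumour 10 at 324.4, and the ONECUT bar is lowest there at 2.89.

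Against counting error alone, all 9 members varied between tumours (Poisson heterogeneity chi-square test, Benjamini-Hochberg adjusted, largest adjusted p 2.06e-21, for Nr5a2), but so did 98.7% of expressed genes. With 5% technical variation added, 9 of 9 members and 94.1% of expressed genes still did. An SD of log2 CPM of at least 1 was reached by 1 of 9 members, Foxa1, and by 16.6% of expressed genes. The median SD was 0.72 log2 units for the members and 0.45 for all expressed genes. Each tumour was also tested against the other 3 with edgeR's quasi-likelihood test, adjusted over all genes and the 4 tumours. No member passed in any tumour, and 0.0% of expressed genes did. Adjusted for tumour 10 alone, 0 members and 1.75% of expressed genes passed. At an unadjusted p of 0.05, tumour 10 had 2 members higher, Cebpa and Cebpb, where 13.9% of expressed genes were, and 2 lower, Onecut1 and Prox1, where 8.23% were; 4 of 9 members thus passed against a background of 22.1%. Tumour 9 had 0 members higher (background 3.76%) and 1 lower, Foxa2 (1.9%), or 1 of 9 in either direction (5.66%). Tumour 1 had 0 higher (0.427%), 0 lower (0.289%) and 0 in either direction (0.716%), and tumour 5 likewise 0 higher (0.617%), 0 lower (0.305%) and 0 in either (0.922%). The DESeq2 Wald test called 4 cases: Cebpa and Cebpb in tumour 10 (10.4% of expressed genes called), Foxa2 in tumour 9 (2.52%) and Foxa1 in tumour 5 (0.358%), with 0 in tumour 1 (0.221%). A test of 1 tumour assumes that it varies like the other 3 and describes that library. For Foxa1, where tumours 1 and 10 differ from tumours 5 and 9, each such test sets 1 tumour against a mixture of high and low ones. The DESeq2 log2 differences of Foxa1 were nearly equal in tumours 5 and 9, at -5.575 and -5.452. Its call in tumour 5 alone therefore does not set that tumour apart from tumour 9.

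Partner factors showed no common direction. Of 30 such genes, 28 were expressed, and 11 were highest and 10 lowest in tumour 10, which were 39.3% and 35.7% against 35.8% and 32.4% of all expressed genes. With total counts as the scaling 6 of the 28 were highest there. None passed the adjusted edgeR test, and the DESeq2 Wald test called 3 in tumour 10, where it called 10.4% of expressed genes, and 1 in tumour 9 (2.52%). At an unadjusted p of 0.05, tumour 10 had 5 higher (Rxra, Creb3l3, Tef, Nr1h4 and Zbtb20; background 13.9%) and 2 lower (Sall4 and Onecut3; 8.23%), and Gata6 was lower in tumour 9. Rxra, the common dimer partner of nuclear receptors, had 205.5, 207.2, 233.6 and 474.6 CPM. Creb3l3, a liver factor of fasting and lipid metabolism, had 137.0, 122.7, 181.8 and 270.4 CPM. Nr2f6, an orphan receptor, had 183.7, 202.2, 123.8 and 153.1 CPM.

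Many genes known as targets of these factors were highest in tumour 10. Over 5 target lists with 39 expressed genes, of which several stand in more than 1 list, 27 were highest there, as were 35.8% of all expressed genes, with a median deviation of 1.08 log2 units against 0.02 for all expressed genes. With total counts as the scaling, 23 of the 39 and 20.2% of all expressed genes were highest there. The lists were chosen with the high hepatocyte genes of tumour 10 already known, so this is no independent evidence. None of the genes passed the adjusted edgeR test; in tumour 10 the DESeq2 Wald test called 7 HNF4A, 5 FOXA, 4 C/EBP, 5 LRH-1 and 3 ONECUT1 targets, where it called 10.4% of expressed genes. In tumour 5 it called 2, 1, 3, 1 and 1 of the same lists (0.358% of expressed genes), in tumour 9 1 FOXA, 1 C/EBP and 1 ONECUT1 target (2.52%), and in tumour 1 0 (0.221%). The hepatocyte marker sum was also highest in tumour 10. Its list shares Alb, Ttr, Apoa1, Apob, Trf, Cps1 and Fgb with the target lists, so it is no separate measure of them. The part of hepatocyte content in the target levels and in those of Cebpa and Cebpb was not tested.

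HNF4A targets were highest in tumour 10 in 15 of 19 cases, with a median deviation of 1.21, and 10 were higher there at an unadjusted p of 0.05, as were 13.9% of expressed genes. Of all expressed genes, 35.8% were highest in tumour 10. Apoa2, a protein of high-density lipoprotein, had 738.1, 758.5, 1045 and 3324 CPM. Cyp7a1, the rate-limiting enzyme of bile acid synthesis, had 4.09, 0.630, 4.002 and 67.0 CPM, a far wider range than the 2.12-fold of Hnf4a. The iron carrier Trf, the most abundant of the list, differed little and was lowest there (4710, 5468, 5048 and 4112 CPM), and Apoa1 had its maximum in tumour 9 (5779 CPM).

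FOXA and C/EBP targets also differed among themselves. Of 9 FOXA targets, 7 were highest in tumour 10, with a median deviation of 1.08, and of 12 C/EBP targets 8 were, with 1.20. With total counts as the scaling, 6 FOXA and 8 C/EBP targets were. Of all expressed genes, 35.8% were highest there with TMM and 20.2% with total counts. Tat, tyrosine aminotransferase, stands in both lists and had 41.0, 5.16, 4.597 and 1166 CPM. Alb, albumin, had 4732, 4520, 5594 and 13400 CPM, while its fetal relative Afp was low in tumour 10, at 119.6 CPM against 1922, 3763 and 4974 CPM. Cps1, the first enzyme of the urea cycle, had 1128, 1015, 1483 and 3934 CPM. Haptoglobin (Hp), an acute phase target of C/EBP factors, had 684.8, 71.5, 124.3 and 5814 CPM.

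LRH-1 targets split while Nr5a2 itself stayed level. Of 7 expressed genes, 5 were highest in tumour 10, with a median deviation of 2.23, and the same number were higher there at an unadjusted p of 0.05 (13.9% of expressed genes). Abcg5, a subunit of the sterol exporter, had 28.3, 36.7, 19.8 and 319.2 CPM. Scarb1, the receptor for high-density lipoprotein, was nearly constant, with 231.7, 204.4, 212.1 and 224.3 CPM. With TMM all 7 ONECUT1 targets, and with total counts 5 of them, were highest in tumour 10, where Onecut1 was lowest. Of all expressed genes, 35.8% were highest there with TMM and 20.2% with total counts. Among these targets were the members Hnf4a and, highest there with TMM only, Foxa2. The thyroxine carrier Ttr, also among them, had 382.5, 305.1, 814.1 and 2735 CPM.

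**Figure D5:**
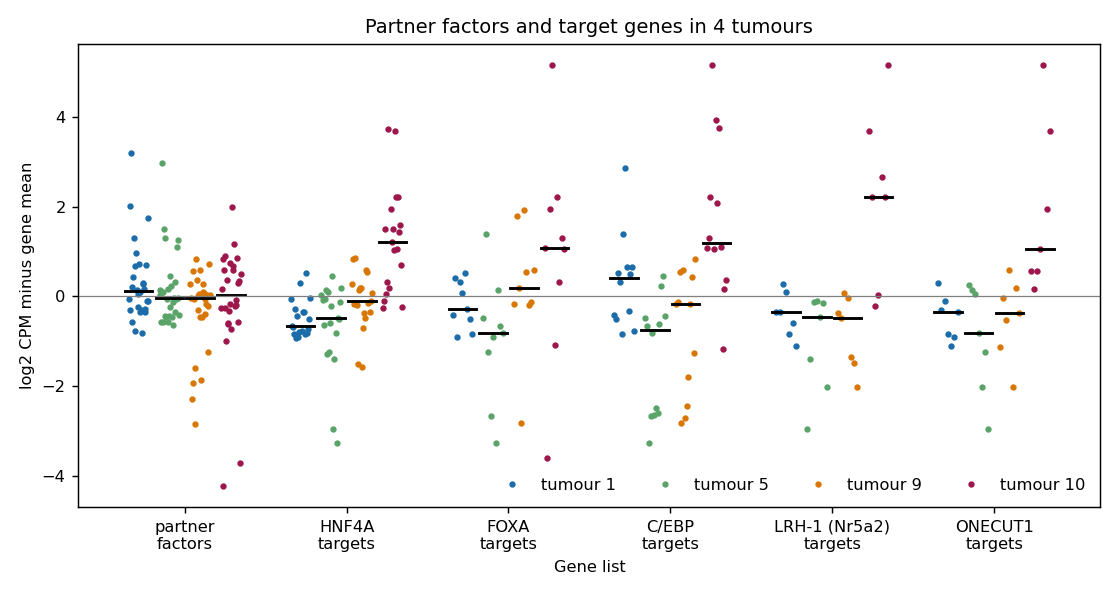
Log2 CPM minus the gene's mean over 4 tumours for the expressed genes of the partner list and the 5 target lists; points are genes, black bars are list medians, colours are tumours. The medians of tumour 10 lie between 1.05 and 2.23 for the target lists and at 0.04 for the partner factors.

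Of the other motifs searched on both strands in the 14 RefSeq windows of the 9 members, TATTGAT was also present before 1 Foxa2 start, the C/EBP letters TTGCNNAA before 1 Nr5a2 start (9.56% of windows) and the E-box CACGTG, the MYC site, before Onecut1 (6.02%). The HNF4 letters CAAAGTCCA (0.384% of windows) and the LRH-1 letters CAAGGNCA (5.53%) matched in none of them, which says only that these letters are not in these windows.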

How the data were processed

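Poly-A RNA of 4 tumours was sequenced from TruSeq libraries, per the labels' protocols. Per the submitters' processing notes, FastQC 0.11.8 was run and the build was GRCm38. For the aligner, counting program and strand setting: not given in the sources used here. The authors' deposited counts are whole reads for 33984 RefSeq rows, and the deposited FPKM and TPM columns, so named per the file headers, served to recover transcript lengths and to check the unit.

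Reads were counted on several isoforms at once, so each symbol was represented by its row with the highest mean count. Counts were scaled by TMM (factors 1.102, 1.031, 1.098 and 0.8018 for tumours 1, 5, 9 and 10), with a prior count of 2 before taking log2. At these depths 3 counts correspond to 0.0524, 0.07, 0.0558 and 0.0892 CPM; intervals and floors cover counting error only. Tests used edgeR 4.0.16 (robust quasi-likelihood, two-sided, the SE being the log2 difference over the root of F) and DESeq2 1.42.0 in R 4.3.3, with a threshold of 0.05, and were tested on simulated data. Alternatives were other scalings, summed rows, no filter, another prior count and leaving out each tumour. Named were the 9 members, of each list the 3 most abundant expressed genes and the 1 with the largest SD, the 3 genes nearest to a member (distances over 4 tumours, given for Foxa1 and Hnf4a), and others said to be chosen afterwards. Partner genes passing an unadjusted p, the FOXA, C/EBP and ONECUT relatives and the chromosome neighbours were chosen after their values were seen. Members and lists were chosen with earlier results of these data known. Coordinates are from GENCODE M21 on GRCm38, promoter letters from RefSeq. Protein sequences were not used here, so the planned protein comparison was not made. Some genes and motifs covered by these rules are not reported here.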

Additional observations from a re-analysis of the deposited data

Results flagged for a closer look

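Of 25 genes checked (the 9 members and the genes named from the lists), 1 had a tumour far from the other 3 on the log2 scale, and chance alone gives about 1 in 20. Rxra was at 475 CPM in tumour 10, with the others between 205 and 234 CPM. None of the 9 members had such a tumour.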

How the results depend on the processing

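Of 159 alternative values for 28 results, 143 stayed within the spread between tumours, within 1.5 times the count, or on the same side of the threshold. An SD of 1 was reached by 1 member under every setting (Foxa1 with each tumour left out). Members called in the tests of 1 tumour numbered 0 with edgeR under each setting and 4 with the DESeq2 Wald test. Scaling by total counts shifts the middle expressed gene by 0.14 in tumour 1, 0.04 in tumour 5, 0.13 in tumour 9 and -0.32 in tumour 10 (log2). With it, tumour 10 minus the mean of the others became 0.33 for Hnf4a, -0.94 for Foxa3, 1.04 for Cebpa, 1.03 for Cebpb, -1.84 for Onecut1 and -1.34 for Prox1, and turned to -0.03 for Nr5a2, so that the higher Nr5a2 of tumour 10 depends on scaling. Partner factors highest in tumour 10, an alternative chosen after seeing the data, went from 11 to 6. Summing rows, which counts shared reads again and enlarges the totals, moved the mean log2 CPM to 8.54 for Hnf4a, 5.62 for Foxa2, 5.11 for Foxa3, 9.3 for Cebpa, 7.89 for Cebpb, 5.69 for Nr5a2 and 4.85 for Prox1. No paired analysis was possible because all 4 tumours form 1 group. Among the members, depth limits Foxa1 in tumours 5 and 9 (9 and 12 counts).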

Other observations

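Some partner factors, picked after their values were seen, were uneven between tumours 1, 5, 9 and 10. Sall4, a fetal liver zinc finger factor, had 28.0, 19.9, 13.7 and 0.595 CPM, Gata6 18.7, 39.3, 1.92 and 26.2 CPM, and Zbtb20, a repressor of Afp, 5.26, 4.203, 1.32 and 19.6 CPM. Nr1h4, the bile acid receptor FXR, had 31.2, 35.4, 66.4 and 122.0 CPM. None of these genes passed the adjusted edgeR quasi-likelihood test in any tumour; for Sall4 in tumour 10 the adjusted p was 0.17.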
